A study of Drosophila melanogaster with 4 samples.

Results

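Border peaks are Drosophila Myc peaks that stand at the edge of a long stretch of chromosome without any peak. They were chosen by position alone, from the intervals (gaps) between neighbouring peaks in the authors' single peak list. A border peak had a gap of at least 60 kb on one side and a gap below 20 kb on the other, on the chromosome arms 2L, 2R, 3L, 3R or X. This gave 456 border peaks of 7768 peaks on these 5 arms, or 5.87%, and of 8614 peaks in the whole list. They are set beside 5140 interior peaks, which had both gaps below 20 kb. The gap lengths are therefore the values that selected the members, and they are given as a description. Score and width come from the same list and the same comparison of ChIP with input, so they too are given as descriptions, with no test.

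The list comes from chromatin immunoprecipitation and sequencing (ChIP-seq) of whole wandering third-instar larvae, with 2 ChIP libraries, made with the rabbit polyclonal antibody MycN against the fly protein, and 2 input DNA libraries from chromatin that was not precipitated. Every library came from the same strain, Y cn bw sp, with sex given as unknown. The genotype of this strain has y[1] and oc[R3.2] on the X chromosome. The second chromosome carries Gr22b[1] with Gr22d[1], then cn[1], CG33964[R4.2] and bw[1], and also sp[1]. The third carries LysC[1], lab[R4.2] and MstProx[1], together with GstD5[1] and Rh6[1]. Whole larvae mix many tissues, and a gap in the list is a stretch where no peak was listed for that mixture. Nothing in the labels ties the libraries to separate collections of larvae. The list has no value for a single library, so no spread between replicates exists for any number here, and the sequencing depth behind the peaks is unknown.

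Myc, a transcription factor of the helix-loop-helix type, binds DNA together with its partner Max, typically near the start sites of active genes. In Drosophila it drives cell growth, with genes of ribosome production and metabolism among its best known targets. Larval growth, and the repeated DNA replication without division that makes larval cells polyploid, depend on it. Genes are spread unevenly along fly chromosomes. No genome sequence or gene annotation of the list's build, FlyBase Release 5, was used here, so the gaps and peaks are given by coordinates on that build, and no gene is named inside a gap.

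Long gaps were few among the intervals but took up much of the arms. Of 7763 intervals between neighbouring peaks, 351 were 60 kb or longer, or 4.52%. Together these 351 gaps spanned 36.7 Mb, which is 30.8% of the 119.0 Mb from the first base of each arm to the end of its last peak. The median gap was 88.0 kb, with an interquartile range from 73.3 to 117.8 kb. The gaps of 100 kb or more numbered 134, and those of 200 kb or more numbered 19. The shortest gaps admitted were 60044, 60102 and 60132 bp, and the longest gaps left out were 59824, 59818 and 59753 bp. On the other side of a border peak, the longest gaps admitted were 19897, 19702 and 19691 bp, and the shortest left out were 20011, 20045 and 20235 bp. Both limits cut through a continuous range of lengths.

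The arms differed in how much of their length lay in long gaps. X had the largest share, 37.1% of its span in 79 gaps, and 2L came next with 34.6%, also in 79 gaps. On 3L the share was 32.7% in 73 gaps and on 3R it was 27.7% in 77 gaps. The arm 2R had the smallest share, 22.1% in 43 gaps. The number of gaps per Mb showed the same extremes, with 3.52 on X and 2.03 on 2R. The length of a gap varied less between arms, with medians from 83.7 kb on 3R to 94.6 kb on 2R. So 2R had the fewest long gaps but not shorter ones.

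**Figure D1:**
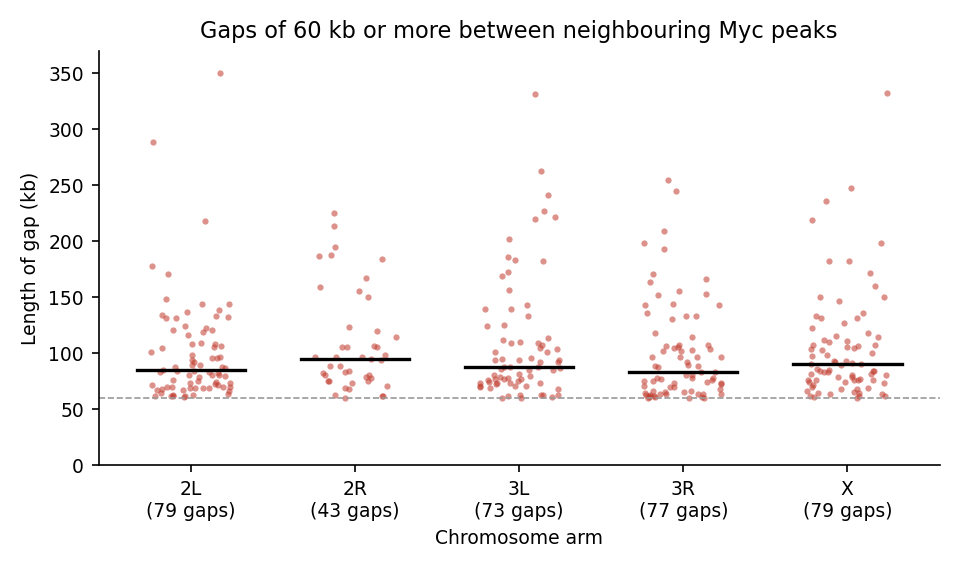
Lengths in kb (vertical axis) of the gaps of 60 kb or more between neighbouring Myc peaks, by chromosome arm (horizontal axis). Each point is 1 gap, black bars are medians and the dashed line is the 60 kb limit; 2R has 43 gaps against 73 to 79 on the other arms, while the medians lie between 83.7 and 94.6 kb on all 5.

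Long gaps were spread over the whole length of the arms and were more frequent in the last Mb before the centromeric end on 4 of 5 arms. With each arm cut into 5 equal parts, counted from its centromeric end, 72, 69, 73, 69 and 68 gaps had their midpoint in each part. The border peaks numbered 77, 93, 96, 99 and 91 in the same parts. The part next to the centromere had the fewest border peaks, with 16.9% of them, and it also had 16.9% of the interior peaks. At a finer scale, 20 gaps had their midpoint within 1 Mb of a centromeric end, or 4 per Mb over the 5 arms, against 2.90 per Mb on the rest of the arms. The windows held 6 gaps on 3L, 5 each on 2L and X, 3 on 2R and 1 on 3R. The rest of the arm had 2.85 per Mb on 3L, 3.37 on 2L, 3.46 on X, 1.99 on 2R and 2.83 on 3R. With 1 window of 1 Mb per arm, the comparison on each arm rests on few gaps. Within the same windows, 16 of 133 peaks were border peaks, or 12.0%, against 440 of 7635 peaks on the rest of the arms, or 5.76%. Interior peaks made up 32.3% of the peaks in these windows and 66.8% on the rest of the arms.

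A long gap usually had a border peak on at least one of its sides. Of the 351 gaps, 150 had a border peak on both sides, 156 on one side and 45 on neither. Seen from the 702 gap ends, 456 were border peaks, 155 were peaks whose next gap was 20 to 60 kb long, and 90 were the ends at peaks with another gap of 60 kb or more behind them. The remaining end was the first or last peak of its arm. The 90 ends belong to 45 peaks that had long gaps on both sides and so were isolated rather than at a border. Gap length was nearly the same in the 3 groups, with medians of 88.8 kb for gaps with 2 border peaks, 86.6 kb for gaps with 1 and 92.0 kb for gaps with none.

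Between consecutive long gaps the peaks formed islands. There were 346 such islands on the 5 arms, and 45 of them were single isolated peaks. The other 301 islands held a median of 14 peaks over a median of 162.6 kb. Small islands of 2 to 5 peaks numbered 63 and supplied 81 border peaks, those of 6 to 20 peaks numbered 110 and supplied 166, and those of 21 to 50 peaks numbered 86 and supplied 139. The 42 islands of more than 50 peaks supplied 62. All islands together supplied 448 border peaks, and the others lay between a long gap and the end of an arm, outside any island. The island with the most peaks, chosen after its value was seen, lay on 2R from 2347423 to 4062543 and held 143 peaks over 1.72 Mb, without any gap of 60 kb. The border peaks of islands thus came from islands of very different size. Of all 456 border peaks, 162, or 35.5%, had a further long gap beginning within 100 kb on the side away from the first. The same share was not taken for interior peaks or for all peaks, so it is not read as a trait of border peaks.

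In some places long gaps followed one another with only single peaks between them. There were 34 runs of 2 such gaps, 2 runs of 3, and 1 run each of 4 and 5. Both of the longest runs, named after their values were seen, were at the base of 3L. The run of 5 gaps extended from 23164876 to 23935656 over 770.8 kb, and the run of 4 from 23940959 to 24529067 over 588.1 kb. Together they left that stretch of 3L almost without peaks. A run of 3 gaps lay at the base of X, from 21942444 to 22409402.

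The longest gap was on 2L, where no peak was listed between 16910552 and 17260652, a stretch of 350.1 kb. Its border peak was on the left, from 16910112 to 16910551, with a score of 31.90 and a width of 440 bp. The score is the value that the peak caller gave; no header names its scale, and it is used here for order and for medians. The peak on the right, with a score of 65.84, had another gap of 106849 bp behind it and was not a border peak. The border peak of the longest gap thus scored below the median of border peaks, 65.1.

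On X the longest gap ran from 14141852 to 14474156, or 332.3 kb, between border peaks scoring 65.34 on the left and 322.32 on the right. The longest on 3L, 331.6 kb from 13506738 to 13838369, lay between border peaks scoring 125.44 and 135.91. The fourth in length was on 2L from 11517681 to 11805904, or 288.2 kb, and its border peaks scored 220.32 and 812.38. Of these 3 pairs, the one on 3L had the closest scores.

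On 3R the longest gap, 254.5 kb from 23873181 to 24127661, had a border peak only on the right, which scored 13.69 and was 313 bp wide. A second, separate peak began 122 bp beyond it. On 2R the longest gap measured 225.5 kb, from 717191 to 942670, with its border peak on the left at a score of 165.72. Across these 6 gaps the border scores ran from 13.69 to 812.38.

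The first comparison asked whether Myc peaks beside a long gap were weaker or stronger than peaks inside bound stretches. They were much alike. Border peaks had a median score of 65.1, with an interquartile range from 25.9 to 153.1, and interior peaks a median of 59.3, with an interquartile range from 21.4 to 150.1. A score above the interior median was found in 237 of 456 border peaks, or 52.0%, against 51.5% of all 7768 peaks on the 5 arms. The share near the background means that no shift of the border peaks as a set is read from this count. With peaks less than 500 bp apart merged, the share was 48.5%, below the 50% that interior peaks have by definition. The share over all peaks was not taken in that setting. Scores ran from 8.11 to 930.38 among border peaks and from 6.58 to 925.32 among interior peaks.

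The top of the score range was filled equally and the bottom was not. Scores in the highest 10% of the 5 arms (318.98 or more) were found in 43 border peaks, or 9.43%, and in 475 interior peaks, or 9.24%, with a background of 10.1% over all peaks of the arms. Scores in the lowest 10% (12.6 or less) were found in 28 border peaks, or 6.14%, and in 571 interior peaks, or 11.1%, with a background of 10.0%. Very close neighbours moved with this difference, and their part in it was not tested beyond the values that follow. A peak less than 1 kb from its nearer neighbour was the case for 16.0% of border peaks and 31.9% of interior peaks, which have close neighbours possible on both sides. Among peaks at 1 to 5 kb from the nearer neighbour, the lowest 10% held 8 of 166 border peaks, or 4.82%, and 149 of 2457 interior peaks, or 6.06%. At 5 to 20 kb it held 12 of 217 border peaks, or 5.53%, and 60 of 1043 interior peaks, or 5.75%. Below 1 kb it held 8 of 73 border peaks, or 11.0%, and 362 of 1640 interior peaks, or 22.1%. In these counts the shares of very weak peaks differed most among peaks with a close neighbour, and little elsewhere. The border share below 1 kb rests on only 8 of 73 peaks. No share over all peaks of the arms was taken within these classes.

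The medians changed sides with the distance to the nearer neighbour. Below 1 kb, the 73 border peaks had a median score of 38.9 and the 1640 interior peaks 31.0. At 1 to 5 kb the medians were 60.4 for border peaks and 68.6 for interior peaks, and at 5 to 20 kb they were 76.6 and 80.9. In both sets the score was higher the farther the nearer neighbour. Compared only within these 3 classes, 48.7% of border peaks scored above the interior median of their class.

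**Figure D2:**
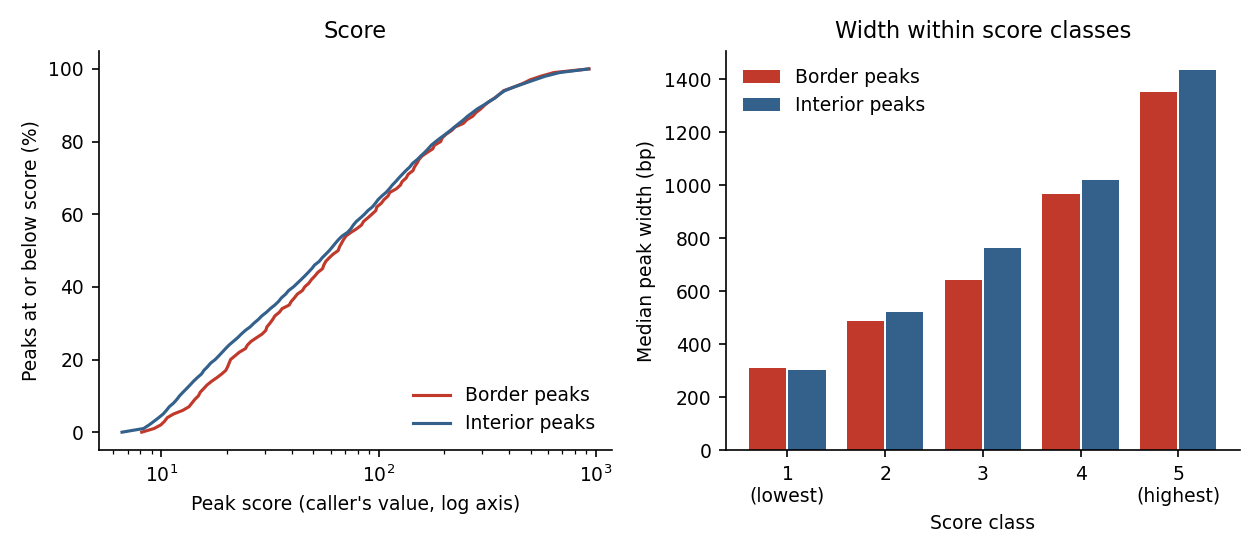
Left, the share of peaks at or below each score (log axis) for border and interior peaks; right, the median width in bp of both sets within 5 score classes that each hold an equal share of interior peaks. The border curve lies to the right of the interior curve at low scores and both run together at high scores, and the border bars are lower than the interior bars in score classes 2 to 5.

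Arm by arm, the direction of the score difference was not the same. The border median was higher than the interior median on 3L (70.8 against 57.4), on 2R (66.8 against 56.6) and on 3R (67.4 against 59.5). It was lower on 2L (55.2 against 60.2) and on X (61.6 against 64.1). The share of border peaks above the interior median of their own arm ran from 46.5% on 2L to 56.4% on 2R. Peaks on the left and on the right of a gap had medians of 65.6 and 62.1, with 228 border peaks on each side.

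From 5 kb upwards, the median score neither rose nor fell steadily with the length of the longer gap. Among peaks with one gap below 20 kb, the median score was 40.4 where the longer gap was under 5 kb, and 67.9 at 5 to 20 kb. It was 72.1 at 20 to 40 kb, 67.5 at 40 to 60 kb, 60.9 at 60 to 100 kb and 66.4 at 100 kb or more. The low value of the first class belongs to peaks with close neighbours on both sides. From 5 kb upwards the medians lay between 60.9 and 72.1, with the highest at 20 to 40 kb and the lowest at 60 to 100 kb. Over the 456 border peaks, Spearman's rho between gap length and score was 0.05, and between gap length and width 0.003, as a description across peaks that share 1 list and in part the same gaps.

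**Figure D3:**
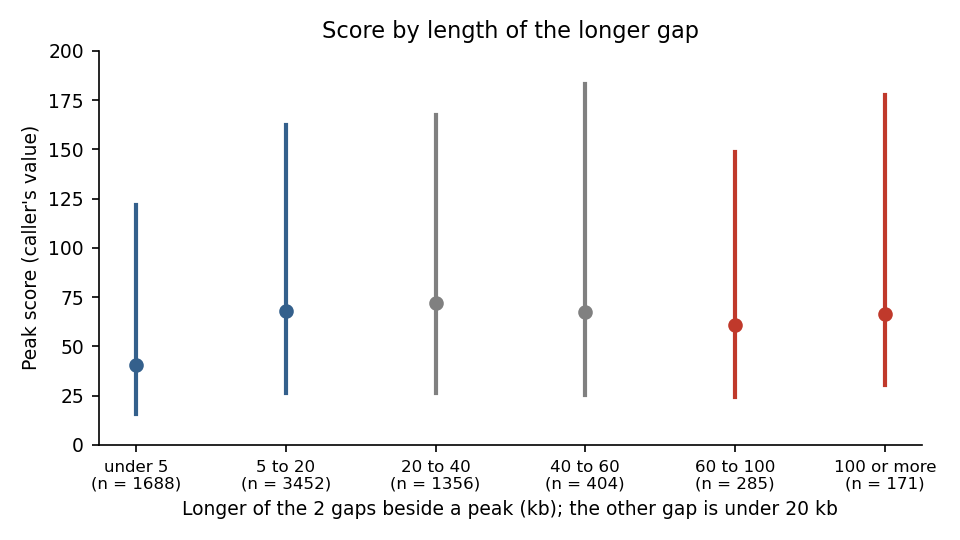
Peak score (vertical axis) by the length of the longer of the 2 gaps beside a peak (horizontal axis, in kb), for peaks whose other gap is under 20 kb. Points are medians and lines are interquartile ranges; interior peaks are in blue, peaks beside gaps of 20 to 60 kb in grey and border peaks in red, and the medians from 5 kb upwards lie between 60.9 and 72.1.

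Each of the 5 border peaks with the highest scores was among the 108 highest-scoring of the 8614 peaks in the whole list. The highest score, 930.38, belonged to a 1464 bp wide peak on X from 20127432 to 20128895, with a gap of 131837 bp on its right. On 3R, the peak from 10729442 to 10730454 scored 838.61 beside a gap of 117829 bp. The 2L peak at the right edge of the 288.2 kb gap, from 11805905 to 11809648, scored 812.38 and was 3744 bp wide. The next were a 3L peak from 19783326 to 19785204, scoring 790.05 beside a gap of 81947 bp, and a 2R peak from 10531939 to 10533313, scoring 650.17 beside a gap of 106185 bp. Each of the 5 arms had 1 of these 5 peaks.

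The 3 border peaks with the lowest scores were among the 154 lowest-scoring peaks of the whole list, whose lowest score was 6.58. A 2R peak from 5675875 to 5676087 scored 8.11, another 2R peak from 17946526 to 17946802 scored 8.53, and a 2L peak from 14491015 to 14491249 scored 8.97. Their widths were 213, 277 and 235 bp. Where a gap ends at such a peak, its length depends on the authors' threshold. With the weakest 10% of peaks on the arms left out, the list had 468 border peaks and 361 long gaps.

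The second comparison asked whether border peaks differed in width. The median width was 692.5 bp for border peaks (interquartile range 466 to 1076 bp) and 759 bp for interior peaks (448 to 1201 bp). A width above the interior median was found in 208 of 456 border peaks, or 45.6%, against 49.4% of all peaks on the 5 arms. The share's 95% exact binomial interval, 41.0% to 50.3%, which covers counting error only, holds the background, and with gaps of at least 40 kb the share was 48.6%. No shift in width of the border peaks as a set is therefore read from this count. Width and score move together in this list, with Spearman's rho of 0.79 over border peaks and 0.83 over interior peaks, so widths were also compared at like score.

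At like score the median width of border peaks was lower in 4 of 5 score classes, each holding an equal share of interior peaks. In the lowest class the median widths were 311.5 bp for border peaks and 303.5 bp for interior peaks. In the second class they were 487 and 521 bp, and in the third, where the difference was largest, 644 and 763 bp. In the fourth class they were 966 and 1020 bp, and in the highest 1354 and 1436 bp. Over all classes, 43.4% of border peaks were wider than the interior median of their class. Interior peaks have about 50% by the definition of this measure. No share over all peaks of the 5 arms was taken for it, so no shift of the border peaks as a set is read from it. The share was also taken by distance to the nearer neighbour. Set against interior peaks in the same class of distance to it, this share was 53.4% (39 of 73 border peaks) below 1 kb, where the median widths were 719 bp for border peaks and 669 bp for interior peaks. It was 42.8% (71 of 166) at 1 to 5 kb, with medians of 678.5 bp for border peaks and 788 bp for interior peaks. At 5 to 20 kb it was 44.7% (97 of 217), with 696 and 804 bp. No interval was taken for these shares, so no change of side between the classes is read from them. By arm the share over all distances was 38.8% on 3R, 40.6% on 2L, 41.8% on 2R, 46.2% on 3L and 50.0% on X. The same measure was also low beside shorter gaps, at 44.0% where the longer gap was 20 to 40 kb and 42.8% at 40 to 60 kb, and it was 45.3% at 60 to 100 kb and 40.4% at 100 kb or more. Shares below 50% at like score were thus found beside gaps of 20 kb or more in general, and not only at border peaks. Among interior peaks it was 54.8% where both gaps were under 5 kb and 47.6% where the longer one was 5 to 20 kb.

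Wide peaks were found at the borders too. There were 10 border peaks wider than 3000 bp, or 2.19%, and 162 interior peaks, or 3.15%, with a background of 2.82% over all peaks of the 5 arms. The widest peak of the 5 arms was a border peak, on 2L from 5221224 to 5234974. It was 13751 bp wide with a score of 243.75, had a gap of 69565 bp on its left and was 99 bp from the next peak on its right. The others of the 3 widest were on X, from 7229085 to 7235067 (5983 bp, score 193.02) and from 18665528 to 18671119 (5592 bp, score 505.55). All 3 had their next neighbour on the island side within 503 bp.

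The third comparison asked how densely Myc peaks lay on the side away from the gap. On average they lay slightly more sparsely than beside interior peaks. The first neighbour on that side was a median of 4651 bp away, against 4169 bp over both sides of interior peaks, where both distances are below 20 kb by the rule. It was closer than 1 kb for 16.0% of border peaks and on 19.1% of interior sides. The 100 kb away from the gap held a median of 8 other peaks for border peaks (interquartile range 5 to 10, from 1 to 20) and also 8 beside interior peaks (6 to 11, from 1 to 25). The means were 8.03 and 8.61 peaks, a ratio of 0.93. The ranges overlap almost wholly. Each interior peak adds its own windows, so densely bound stretches weigh more in the interior values. Of the border peaks, 35.5% had a further long gap beginning within 100 kb on the side away from the first. Without the same share for interior peaks, its bearing on the ratio cannot be told. How far the ratio follows from the way the sets were chosen was not tested.

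The difference in density was largest on 2L. On that arm the mean number of peaks in the 100 kb was 7.35 away from the gap and 9.14 beside interior peaks, a ratio of 0.80. The ratio was 0.93 on 2R, 0.95 on 3L, 0.98 on 3R and 1.00 on X. Without 2L it was 0.97 over the other arms. A dense row of 23 peaks wider than 3000 bp lies on 2L between 21416849 and 21539494, and leaving out peaks within 100 kb of it gave a 2L ratio of 0.83. No border peak lay within 100 kb of that row.

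In steps of 20 kb the density fell with distance in both sets and met the same level. In the first 20 kb it was 113.8 peaks per Mb for border peaks and 122.8 per Mb for interior peaks, and this step holds the neighbour that the rule requires. At 40 to 60 kb it was 68.7 and 76.3 per Mb, and at 100 to 120 kb 63.6 and 70.5 per Mb. From 140 to 160 kb onward the ratio of border to interior density lay between 0.99 and 1.02. The share of empty 20 kb steps at 20 to 40 kb was 27.9% for border peaks and 24.8% for interior peaks.

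**Figure D4:**
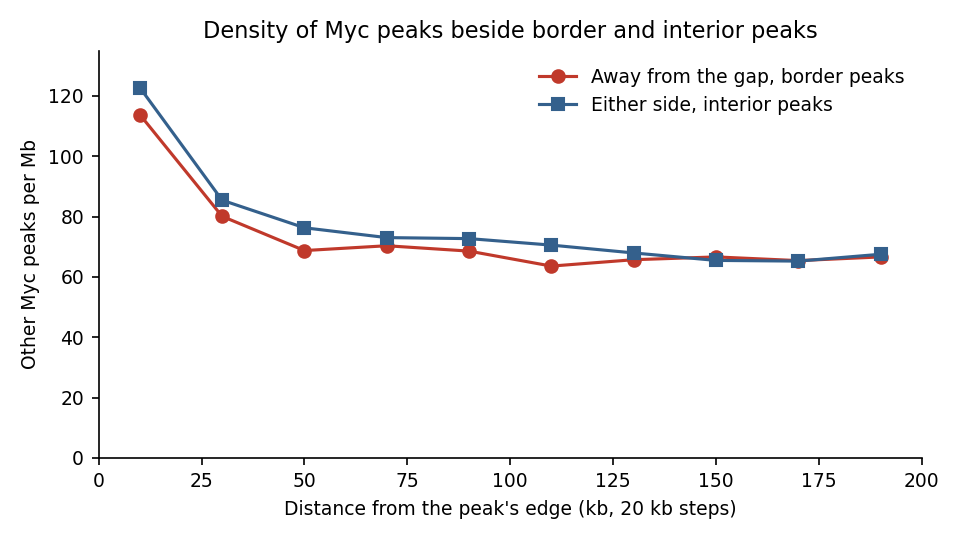
Other Myc peaks per Mb (vertical axis) in 20 kb steps of distance from a peak's edge (horizontal axis, in kb), on the side away from the gap for border peaks and on both sides pooled for interior peaks. Border peaks have the lower density in each step up to 140 kb, by a ratio of 0.90 to 0.97, and the curves meet beyond.

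Going inward from the gap, the border peak did not stand out in score from the peaks behind it. Following peaks inward as long as each next gap was below 20 kb, the median score was 65.1 for the border peak, 58.3 for the second peak, 62.8 for the third, 58.8 for the fourth and 62.2 for the fifth. The eighth, with 145 peaks left, had the highest median, 90.2, and the ninth, with 116 left, the lowest, 47.5. The border peak scored higher than the second peak in 232 of 456 cases, or 50.9%. In islands of only 2 peaks, both at a border, each pair was counted in both directions and cannot show a difference. In other small islands the peaks behind include the border peak of the opposite edge. This share was 53.4% where the pair was less than 1 kb apart, 50.0% at 1 to 5 kb and 50.7% at 5 to 20 kb. There was thus no ordered rise or fall of score from the edge into the island.

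The scores of the 2 border peaks of one gap did not go together. Over the 150 gaps with a border peak on both sides, Spearman's rho between the left and the right score was 0.01, as a description across gaps of 1 list. Both peaks scored above the median of border peaks at 38 gaps, one of them at 75 gaps and neither at 37. A strong edge on one side of a gap therefore came with strong and weak edges on the other side about equally often.

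**Figure D5:**
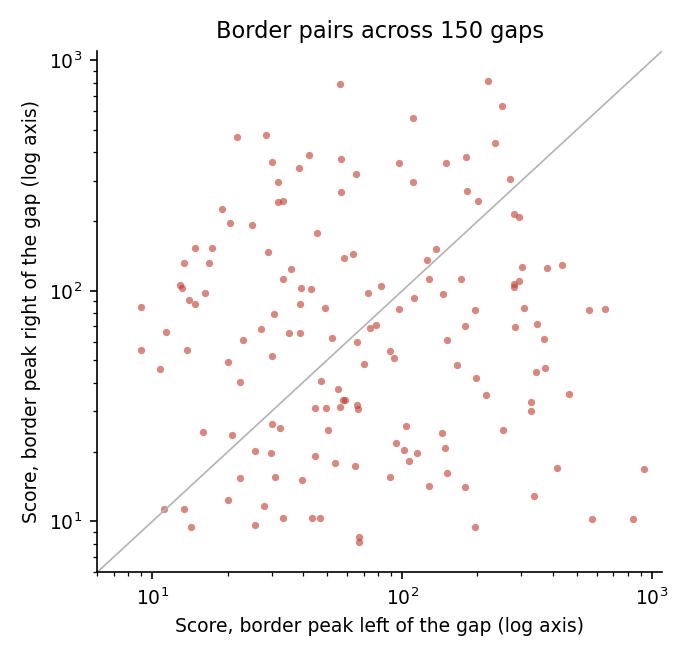
Scores of the border peaks on the left (horizontal axis) and on the right (vertical axis) of the 150 gaps that have one on both sides, on log axes, with a line where both would be equal. The points fill the plane without a trend, with a Spearman's rho of 0.01.

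Peaks with long gaps on both sides offer a further comparison. Border peaks had a median score of 65.1 and a median width of 692.5 bp. The 45 peaks with both gaps of 60 kb or more had a median score of 70.9 and a median width of 588 bp. The 402 peaks with both gaps of 20 kb or more, which include them, had medians of 80.1 and 692 bp.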

How the data were processed

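Tools named in the submitters' processing notes, without roles, are BWA, MACS2 and CASAVA (versions 1.7.0.2, 1.7.0.3), and the build is BDGP5. Per the file headers and source column, the authors deposited 1 MACS peak list on FlyBase Release 5. The score is the authors' own value per peak, of unstated scale, and the other deposited columns used are start and end, counted from 1. Of the threshold, filters and pooling, nothing is stated; they are not given in the sources. A gap is the number of bases between neighbouring peaks, and width is end minus start plus 1. Windows that passed an arm's last peak were left out. Calculations used Python 3.11.15, pandas 2.3.3, NumPy 2.4.6 and SciPy 1.17.1, and were tested on simulated data. No test was run and no p-value is given. Members and lists were chosen with earlier results of these data known. Named regions are the 5 longest gaps with a border peak, the longest per arm, the 5 highest and 3 lowest scoring and the 3 widest border peaks, and those at the limits. The planned count of genes inside gaps was not run, since no annotation of Release 5 was used here. The table of genes at hand is of Release 6, and its coordinates were not compared with peaks.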

Additional observations from a re-analysis of the deposited data

How the results depend on the processing

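Of 72 alternatives, 64 kept a count within 1.5 times its value, or a share or median within its 95% binomial interval (47.3% to 56.6% for score, 41.0% to 50.3% for width, 7 to 8 peaks for the 100 kb window), which covers counting error only. The number of border peaks was 860 with long gaps of at least 40 kb and 171 with at least 100 kb, and the number of long gaps 629 and 134. The median number of peaks away from the gap was 4 without the weaker 50% of the peaks by score (interior 4). It was 4 in windows of 50 kb (interior 5) and 14 in windows of 200 kb (interior 15). These moves follow from the construction. The share of border peaks wider than interior peaks was 40.2% within score classes without the weakest 10%; this setting, the other joint settings with score classes and that without the row on 2L were chosen after seeing the data. The share above the interior median score fell below 50% without the weakest 10% (48.7%) and with peaks less than 500 bp apart merged (48.5%). Within classes of the shorter gap it was also below 50% (48.7%). It was highest, 55.7%, without the weaker 50% of the peaks by score. With the other gap below 10 kb it was 53.9%, and with long gaps of at least 100 kb 53.8%. Against the 50% that interior peaks have by definition, the side of this share is thus not settled. The share over all peaks was not taken in these settings. Without 1 arm it ran from 50.9% to 53.5%. No paired analysis was possible because the peaks come as 1 list without replicate columns, and no replicate could be left out. The unknown depth limits how far a gap can be read as lacking binding.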
